A study of Mus musculus with 12 samples.

Results

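Interferon-stimulated genes were examined in the ventricular wall of mice that lack Sdhaf4, an assembly factor of mitochondrial complex II, in striated muscle. The 9 genes named were Isg15, Ifit1, Ifit3, Irf7, Irf9, Stat2, Oasl2, Rsad2 and Usp18, and a gene was taken as measured where the table of 43686 rows held a row with that gene name. Rows were found for 8 of the 9, and no row was named Ifit3, so Ifit3 was not analysed here. RNA-seq counts came from 12 samples, 6 labelled wild type and 6 labelled Sdhaf4 null. The wild-type group (WT) carried floxed Sdhaf4 alleles (Sdhaf4fl/fl) and no Cre. The mutant group (KO, Sdhaf4fl/fl, Ckmm-Cre) carried the same floxed alleles, with loxP sites around the first exons, together with Cre driven by the promoter of muscle creatine kinase. That promoter acts in heart and skeletal muscle, so fibroblasts, vascular cells and leukocytes of the KO heart were left with the floxed gene. The strain label was C57BL/6 and the age label 2 months in both groups. The paper gives ages in weeks that differ between its sections. In RNA from whole tissue, fewer cells of a type and less RNA per cell cannot be told apart.

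Type I interferons are secreted when sensors of foreign or misplaced nucleic acids are engaged, among them the RNA helicases of the RIG-I family, endosomal Toll-like receptors and the cGAS-STING pathway, which also reads mitochondrial DNA that has leaked into the cytosol. They bind the receptor IFNAR1-IFNAR2 and, through the kinases JAK1 and TYK2, drive the assembly of ISGF3, a complex that includes STAT2 and IRF9 and binds the interferon-stimulated response element in the promoters of its targets. The 9 genes include components of ISGF3 (Stat2, Irf9), a factor that amplifies interferon production (Irf7), antiviral effectors (Isg15, Ifit1, Ifit3, Oasl2, Rsad2) and a brake on the receptor (Usp18).

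The promoters were searched for this shared element. They were matched by symbol to RefSeq windows on GRCm38.p6 that run from 250 bases before to 50 bases after each annotated start. Windows existed for 8 of the 9 genes, 9 windows in all because Irf9 had an alternative start. The core of the interferon-stimulated response element, GAAANNGAAA, was searched on both strands. It was present in 5 of the 9 windows (55.6%) and in 1131 of all 32851 windows of the same length (3.44%). The genes matched were Isg15, Ifit1, Ifit3, Rsad2 and Stat2, whereas no match lay in the windows of Irf7, Irf9 or Oasl2. The 250 bases before the start are printed for 4 genes with a match and for Oasl2, which had the largest fold change of the measured genes, read along the strand of the gene, with the matches in capitals (TTTCNNTTTC where the match is on the other strand).
Isg15 (chr4:156200819-156201068, minus strand): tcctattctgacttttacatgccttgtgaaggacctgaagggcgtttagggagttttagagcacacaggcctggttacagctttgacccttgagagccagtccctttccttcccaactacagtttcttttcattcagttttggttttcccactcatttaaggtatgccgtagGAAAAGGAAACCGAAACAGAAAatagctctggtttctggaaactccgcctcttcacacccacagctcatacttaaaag
Ifit1 (chr19:34640639-34640888, plus strand): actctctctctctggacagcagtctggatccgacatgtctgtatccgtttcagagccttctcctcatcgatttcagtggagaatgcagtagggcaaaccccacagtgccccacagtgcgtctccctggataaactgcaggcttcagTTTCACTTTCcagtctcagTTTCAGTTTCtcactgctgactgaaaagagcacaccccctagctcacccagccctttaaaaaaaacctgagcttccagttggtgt
Rsad2 (chr12:26456453-26456702, minus strand): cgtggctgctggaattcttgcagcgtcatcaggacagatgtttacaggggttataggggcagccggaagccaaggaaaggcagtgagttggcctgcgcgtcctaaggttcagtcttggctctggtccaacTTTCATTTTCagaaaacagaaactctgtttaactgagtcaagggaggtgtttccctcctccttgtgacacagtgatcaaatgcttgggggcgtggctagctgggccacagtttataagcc
Stat2 (chr10:128270248-128270497, plus strand): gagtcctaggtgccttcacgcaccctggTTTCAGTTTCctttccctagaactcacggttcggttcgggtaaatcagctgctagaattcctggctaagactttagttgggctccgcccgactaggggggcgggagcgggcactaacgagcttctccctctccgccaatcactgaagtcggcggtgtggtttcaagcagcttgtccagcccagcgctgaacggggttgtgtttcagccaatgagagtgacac
Oasl2 (chr5:114896684-114896933, plus strand): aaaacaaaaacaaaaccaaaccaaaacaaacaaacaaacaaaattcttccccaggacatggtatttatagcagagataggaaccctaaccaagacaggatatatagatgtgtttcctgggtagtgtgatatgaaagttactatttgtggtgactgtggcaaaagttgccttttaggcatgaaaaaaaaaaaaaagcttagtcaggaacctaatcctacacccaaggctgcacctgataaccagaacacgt

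In the Isg15 promoter 3 overlapping matches formed 1 run of repeated GAAA blocks, which began 78 bases before the start. Ifit1 held 2 matches, which began 104 and 85 bases before the start. Rsad2 held 1 match at 120 bases and Stat2 1 match at 222 bases, the farthest from the start among the printed promoters. A match describes the letters of the reference and is not evidence of binding, and the missing match in Oasl2, Irf7 and Irf9 says only that these letters were not in the windows searched.

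The libraries held 23747014 to 27159228 counts in WT and 26542930 to 31393393 in KO. Sdhaf4, the targeted gene, lay between 14.3 and 30.3 CPM (read counts per 1000000, with the library size scaled by TMM factors) in WT, with a median of 26.7, and between 2.25 and 2.73 in KO, with a median of 2.35, so that all 12 libraries matched their labels. The fold change of Sdhaf4 was -3.39 on the log2 scale (SE 0.159, edgeR adjusted p = 1.95e-10). Cardiomyocyte markers summed to 48274 to 53095 CPM in WT and 40019 to 55694 in KO, so that the defining markers of the labelled tissue were present. Replicates 3 and 6 of KO stood farthest from the mean of their genotype, at a root mean square distance of 0.380 and 0.359 in log2 CPM over 16994 rows that hold none of the interferon genes, against 0.269 to 0.330 for the other 10 libraries. The fold changes of the 8 genes are therefore also given without each of them. The labels do not say that the samples of a genotype came from separate animals, and the paper's legend gives n = 6 for its RNA-seq without naming the unit. Each sample is called a heart here, and p-values measure the spread between these samples, which may be technical.

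Of the 8 genes measured, Stat2 alone rose in KO hearts at an adjusted p under 0.05 by edgeR's quasi-likelihood test, and none fell. Over all 17155 rows tested, 25.6% were called higher and 25.5% lower, so the share called among the interferon-stimulated genes, 1 of 8, did not stand above that background. None of the 8 passed the stricter threshold of an adjusted p under 0.005 with a log2 fold change beyond 1 in either direction, which 10.2% of all rows passed. The WT and KO hearts overlapped in all 8 genes, while 30.1% of all rows showed no overlap. The log2 fold change was above 0 in 7 of the 8 genes, with a median of 0.32, beside a median of 0.00 over all rows. The plot of CPM by heart shows these values.

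**Figure D1:**
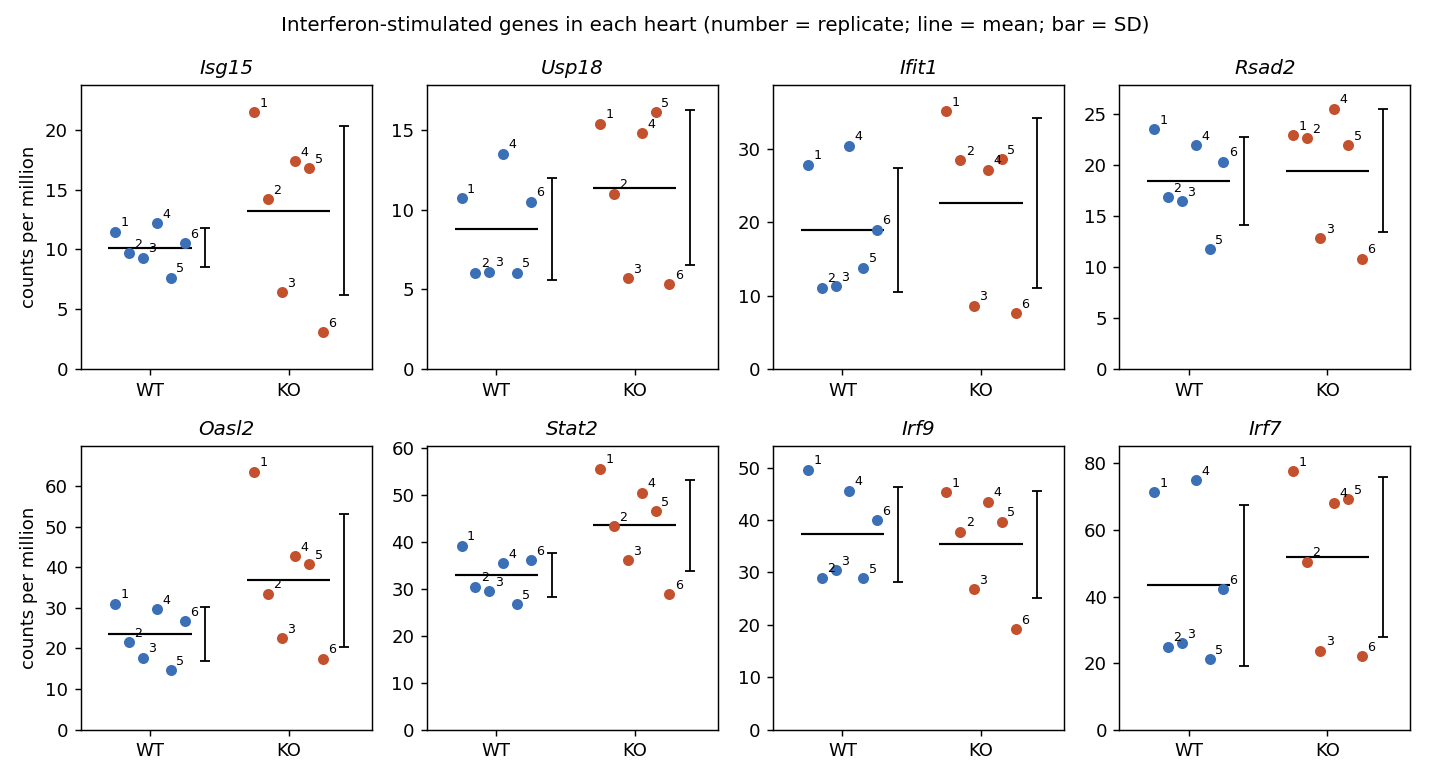
CPM (y axis, linear from 0) of the 8 measured interferon-stimulated genes in the 6 WT (blue) and 6 KO (orange) hearts. Each point is 1 heart with its replicate number, the line is the group mean and the bar beside it is the SD. In every panel KO replicates 3 and 6 lie below the other 4 KO hearts, and the groups overlap.

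Stat2, a signal transducer of type I interferon and subunit of ISGF3 (MGP_C57BL6NJ_G0018250, chromosome 10, 136461565 to 136490450 on the C57BL/6NJ assembly of the files, plus strand), ranged from 26.8 to 39.2 CPM in WT hearts, with a median of 33. In KO hearts it ranged from 28.9 to 55.7 CPM, with a median of 45.0. Replicates 1, 2, 4 and 5 of KO lay above every WT heart, and replicates 3 and 6 lay within the WT range. Between genotypes the edgeR log2 fold change was 0.40 (SE 0.145, 95% confidence interval 0.09 to 0.72, edgeR adjusted p = 0.0333). An exact permutation test of the 6 against 6 hearts, two-sided, gave p = 0.0541, where the smallest p that this design allows is 0.00216. The edgeR call was lost when WT replicate 2, 3 or 5 or KO replicate 1, 2, 4 or 5 was left out (log2 fold change 0.32 to 0.41, adjusted p from 0.0519 to 0.0769). Without KO replicate 6 the fold change was 0.49 (adjusted p = 0.00222), and without KO replicate 3 it was 0.45 (adjusted p = 0.0284).

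Irf9, the subunit of ISGF3 that recognises the response element (MGP_C57BL6NJ_G0021756, chromosome 14, 52134307 to 52140772, plus strand), ranged from 28.9 to 49.6 CPM in WT (median 35.2) and from 19.2 to 45.3 in KO (median 38.7). Its highest heart was WT replicate 1 and its lowest KO replicate 6, and the KO range spanned most of the WT range. KO against WT gave a log2 fold change by edgeR of -0.07 (SE 0.222, 95% confidence interval -0.56 to 0.41, adjusted p = 0.809), and it changed sign, to 0.05, without KO replicate 6 and, to 0.018, without WT replicate 1, and was -0.0083 without KO replicate 3. The value was -0.16 without KO replicate 1. The row of Irf9 overlaps that of Rnf31 by 123 bases on the same strand, so that some reads could belong to either gene. Rnf31 had a log2 fold change of -0.41 (edgeR adjusted p = 5.25e-05).

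Irf7, a transcription factor that drives interferon genes and is itself induced by interferon (MGP_C57BL6NJ_G0033713, chromosome 7, 151794393 to 151798168, minus strand), had the highest level per transcript length of the 8 genes. It ranged from 21.1 to 75 CPM in WT (median 34) and from 22.1 to 77.6 in KO (median 59.3). Both genotypes covered the same range, with WT replicates 1 and 4 beside KO replicates 1, 4 and 5 at the top and WT replicates 2, 3 and 5 beside KO replicates 3 and 6 at the bottom. The edgeR estimate of the log2 fold change was 0.26 (SE 0.437, 95% confidence interval -0.71 to 1.23, adjusted p = 0.652), a wide interval around 0. Leaving out 1 heart moved it between 0.11, without KO replicate 1 or WT replicate 5, and 0.48, without WT replicate 4. It was 0.41 without KO replicate 3 or 6 and 0.45 without WT replicate 1, whereas it was 0.14 to 0.17 without WT replicate 2 or 3 or KO replicate 4 or 5. A stretch of 45 bases is shared with Phrf1 on the other strand, and whether the counting used strand is not stated.

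Isg15, a ubiquitin-like modifier whose promoter held the 3 overlapping matches (MGP_C57BL6NJ_G0029678, chromosome 4, 166270275 to 166271670, minus strand), ranged from 7.65 to 12.2 CPM in WT, with a median of 10.1. In KO it ranged from 3.06 to 21.5 CPM, with a median of 15.5. All 6 WT hearts therefore lay inside the gap between the lowest KO pair, replicate 6 at 3.06 and replicate 3 at 6.42, and the other 4 KO hearts, at 14.2 to 21.5. The highest KO heart exceeded the lowest 7.01-fold, against 1.6-fold in WT. By edgeR the log2 fold change was 0.39 (SE 0.381, 95% confidence interval -0.45 to 1.22, adjusted p = 0.432). It was 0.59 without KO replicate 6 (adjusted p = 0.0640), 0.52 without KO replicate 3 and 0.19 without KO replicate 1. The value depended on the test, at 0.15 with limma-voom and 0.13 with limma on log2 FPKM, and was 0.20 with a replicate block.

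Ifit1, which binds viral RNA that lacks host cap methylation (MGP_C57BL6NJ_G0025479, chromosome 19, 34399342 to 34411059, plus strand), ranged from 11.1 to 30.5 CPM in WT (median 16.4) and from 7.57 to 35.2 in KO (median 27.8). Its pair of lowest hearts were KO replicates 6 and 3 and its highest was KO replicate 1. Between genotypes the edgeR log2 fold change was 0.26 (SE 0.434, adjusted p = 0.651). Without KO replicate 6, KO replicate 3 or WT replicate 1 or 4 it was 0.39 to 0.44, without WT replicate 2 or 3 it was 0.14, and without KO replicate 1 it was 0.088. It was 0.16 with limma-voom, 0.15 with limma on log2 FPKM and 0.17 with a replicate block. The related rows Ifit1bl1 and Ifit1bl2, which could share reads with Ifit1, lay between 2.83 and 8.84 CPM, and their highest heart was KO replicate 3, where Ifit1 was near its minimum.

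Oasl2, a ubiquitin-like relative of the oligoadenylate synthetases (MGP_C57BL6NJ_G0030381, chromosome 5, 122248776 to 122267823, plus strand), showed the largest fold change of the 8 genes without passing the test. It ranged from 14.6 to 31.0 CPM in WT (median 24.1) and from 17.5 to 63.5 in KO (median 37.1). Replicates 1, 2, 4 and 5 of KO lay above every WT heart, as for Stat2, and replicates 3 and 6 lay among the WT hearts. KO against WT gave a log2 fold change by edgeR of 0.65 (SE 0.310, 95% confidence interval -0.04 to 1.33, adjusted p = 0.106). Without KO replicate 6 it was 0.79 and passed the test (adjusted p = 0.0354), and without KO replicate 3 it was 0.75 and did not (adjusted p = 0.0716). Without KO replicate 1, its highest heart, it was 0.42 (adjusted p = 0.240). The neighbouring paralog Oasl1, which could share reads, had a log2 fold change of 0.54 (SE 0.299, adjusted p = 0.146).

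Rsad2, which encodes viperin, an enzyme that makes a chain-terminating nucleotide (MGP_C57BL6NJ_G0017609), lay on chromosome 10 of the assembly used by the files (51989113 to 51998682, minus strand) and on chromosome 12 of GRCm38.p6. It ranged from 11.7 to 23.5 CPM in WT (median 18.5) and from 10.8 to 25.5 in KO (median 22.3). The edgeR log2 fold change of 0.08 (SE 0.228, 95% confidence interval -0.42 to 0.58, adjusted p = 0.801) turned slightly negative, to -0.029 without WT replicate 5 and to -0.013 without KO replicate 4. It was 0.20 without KO replicate 6, 0.17 without KO replicate 3 and 0.025 without KO replicate 1. Rsad2 and Irf9 thus had the smallest differences between genotypes of the 8 genes.

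Usp18, the protease that removes ISG15 from proteins and restrains signalling at IFNAR2 (MGP_C57BL6NJ_G0031653, chromosome 6, 127363332 to 127388255, plus strand), ranged from 6.03 to 13.5 CPM in WT (median 8.30) and from 5.33 to 16.1 in KO (median 12.9). Replicates 1, 4 and 5 of KO lay above every WT heart and replicates 3 and 6 below every WT heart. The edgeR estimate of the log2 fold change was 0.37 (SE 0.331, adjusted p = 0.376). It was 0.51 without KO replicate 3, 0.52 without KO replicate 6 and 0.25 without KO replicate 5. An unnamed row on the other strand covers 15656 bases of the gene, but it held only 3 to 16 counts in a heart. Exact permutation tests of the other 7 genes besides Stat2 gave p from 0.115 for Oasl2 to 0.872 for Rsad2.

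The deposited FPKM values, which scale counts by gene length and library size, allow levels to be ordered between genes. In WT hearts Irf7 stood highest at 38.3 FPKM ± 21.2 (SD, n = 6), followed by Rsad2 at 25.2 ± 6.04, Oasl2 at 17.7 ± 5.07, Irf9 at 17.1 ± 4.19 and Isg15 at 13.4 ± 2.23. Usp18 at 9.95 ± 3.62, Stat2 at 7.47 ± 1.13 and Ifit1 at 7.11 ± 3.15 closed the order. The gap between Rsad2 and Oasl2 was the only one between neighbours that exceeded the larger of the neighbours' SDs. That gap rests on the annotated lengths, 1029 bases for Rsad2 and 3123 for Oasl2. In CPM the WT mean of Rsad2 (18.4) lay below that of Oasl2 (23.5). In KO hearts Irf7 at 46.4 FPKM ± 22.2 and Ifit1 at 8.59 ± 4.50 again stood at the ends, Oasl2 at 27.9 ± 12.9 stood beside Rsad2 at 26.8 ± 8.87, and no gap between neighbours exceeded the larger SD.

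The 8 genes varied widely between hearts of the same genotype. The SD of log2 CPM within a genotype had a median of 0.60 over the 8 genes, from 0.28 for Stat2 to 0.82 for Ifit1. Among the 5590 rows with a mean level in the same range of 10.1 to 47.7 CPM, the median SD was 0.13, with quartiles of 0.10 and 0.18. Stat2 exceeded 92.9% of those rows in its SD and the other 7 genes exceeded 97.8% to 99.7%. The ratio of the highest to the lowest KO heart ran from 1.93 for Stat2 to 7.01 for Isg15, and that of the WT hearts from 1.46 for Stat2 to 3.56 for Irf7. The plot of SD against mean level shows the 8 genes above the bulk of rows.

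**Figure D2:**
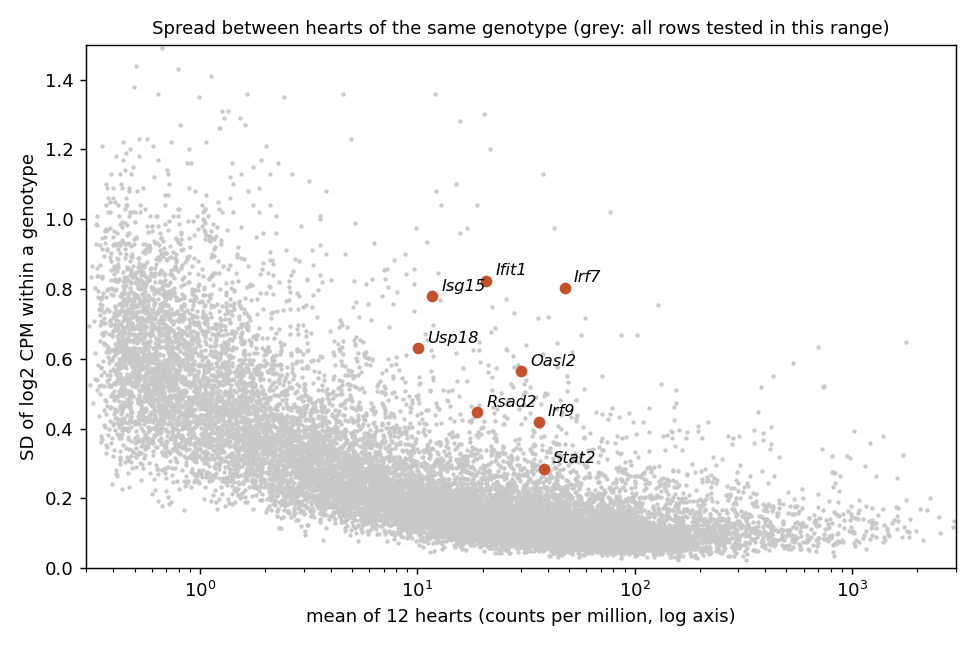
SD of log2 CPM within a genotype (y axis) against the mean level of the 12 hearts in CPM (x axis, log scale) for rows tested (grey) and the 8 measured interferon-stimulated genes (orange, named). Stat2 has the smallest SD of the 8 at 0.28 and Ifit1 the largest at 0.82, against a median of 0.13 for rows at a similar level.

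The hearts kept nearly the same order in every gene, an order that was noticed after the values were seen. Among KO hearts replicate 6 was lowest and replicate 3 next lowest in 8 of the 8 genes, an order found in 6.69% of all rows tested. Among WT hearts replicates 1, 4 and 6 were the highest in 8 of the 8 genes, compared with 6.27% of all rows. KO replicate 1 was the highest of the 12 hearts in 5 genes (8.74% of all rows), and KO replicate 6 lay below every WT heart in 5 genes (31.6% of all rows). After the genotype mean was subtracted, the correlation between a pair of the 8 genes over the 12 hearts ran from 0.807 to 0.978 in the 28 pairs, with a median of 0.917. These values describe genes read from the same libraries and are not independent of one another.

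Of 11941 rows with a gene symbol and a mean of at least 1 CPM, the highest Pearson correlations with the mean of the 8 genes, over 12 hearts and with the genotype mean removed, were those of Rtp4 (0.985) and Ddx58 (0.985), which encodes RIG-I. Bst2 (0.975), the gene of tetherin, Phf11d (0.973), Irgm1 (0.970), Xaf1 (0.967), Oas2 (0.966) and Gbp3 (0.963) followed. All 8 of these rows stand in the interferon lists described below, and none was called between genotypes (log2 fold change 0.01 for Xaf1 to 0.37 for Bst2). Without KO replicates 3 and 6, the hearts farthest from the median, their correlations were 0.936 to 0.980, and within WT alone they were 0.958 to 0.988. The median correlation was 0.009 over all rows compared.

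**Figure D3:**
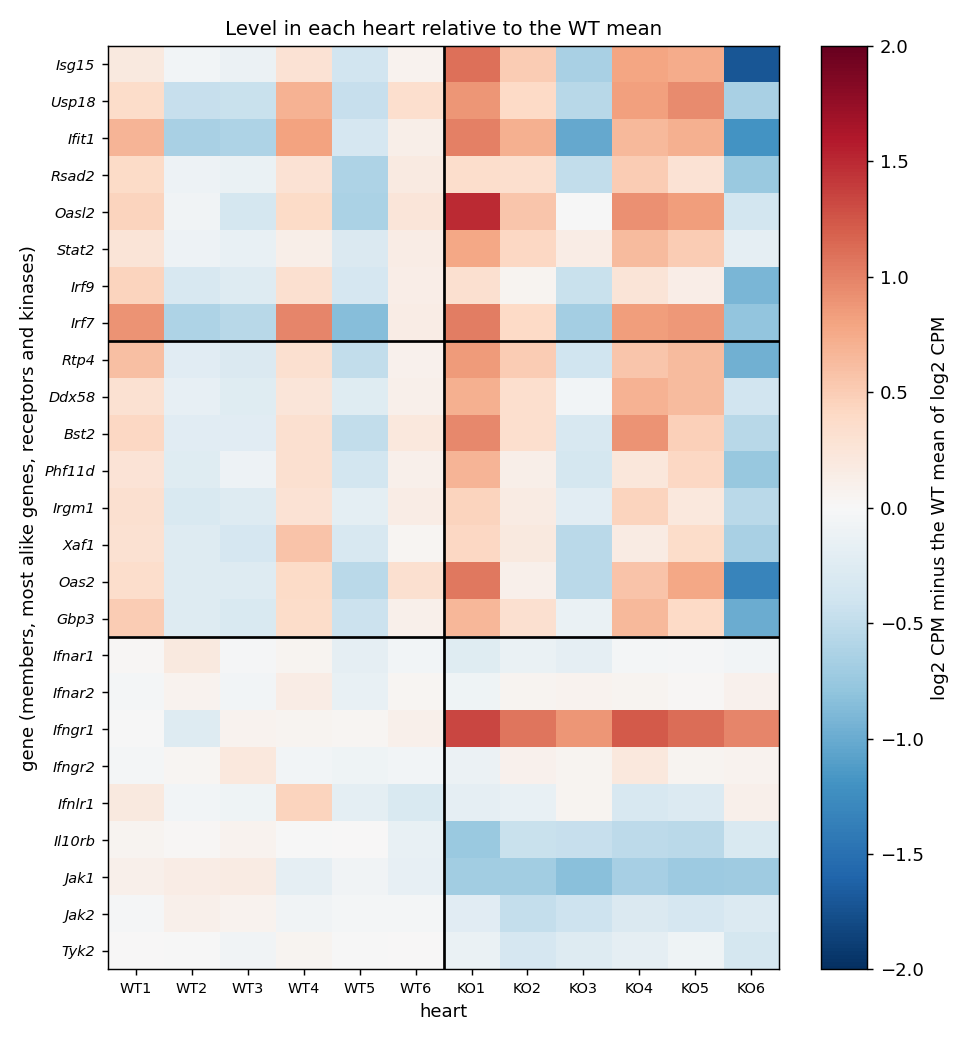
Log2 CPM of each gene in each heart minus the mean of log2 CPM over the WT hearts (colour), for the 8 measured interferon-stimulated genes (top), the 8 most alike rows (middle) and 9 receptor and kinase genes (bottom), with the 6 WT hearts left of the line and the 6 KO hearts right of it. In the upper blocks KO replicates 3 and 6 are mostly blue (Stat2 and Oasl2 in replicate 3 are not), whereas Ifngr1 and Jak1 in the lower block differ evenly between genotypes.

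The interferon genes themselves were at or near 0 counts. Rows were found for 10 of 14 interferon genes, and 9 of them, Ifna4, Ifna5, Ifna9, Ifna11, Ifnab, Ifnb1, Ifne, Ifnk and Ifnl2, were at 0 counts in every heart, which allows a level of up to 0.0956 to 0.126 CPM depending on the library (3 counts). Ifng, the type II interferon, had 7 counts over 5 hearts and at most 2 in a heart. None was tested, since none passed the filter on low counts.

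Of 12 receptor and JAK-STAT genes 1 rose (8.33%, beside 25.6% of all rows) and 4 fell (33.3%, beside 25.5%), with a median log2 fold change of -0.13. The groups did not overlap in 5 of the 12 (41.7%, beside 30.1% of all rows). Ifngr1, a chain of the receptor for interferon gamma, rose by 1.10 (SE 0.076, adjusted p = 6.02e-09), from 87.1 ± 7.32 CPM (SD, n = 6) in WT to 187 ± 21.8 in KO, without overlap. Jak1, the kinase shared by the type I and type II receptors, fell by 0.73 on the log2 scale (SE 0.065, adjusted p = 9.51e-08), from 245 ± 26.8 to 148 ± 5.81 CPM. Il10rb, a chain of the interferon lambda receptor, fell by 0.50 (adjusted p = 4.73e-06), Jak2 fell by 0.34 (adjusted p = 4.72e-05) and Tyk2 fell by 0.22 (adjusted p = 0.00477), and these rows did not overlap between the groups either. The rows of Jak1, Il10rb and Tyk2 overlap other rows of the table.

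The receptor of type I interferon was not called. Ifnar1 was at 46.1 ± 4.03 CPM in WT and 42.6 ± 2.67 in KO (log2 fold change -0.12, 95% confidence interval -0.25 to 0.02), and Ifnar2 was at 19.3 ± 1.38 and 19.8 ± 0.811 (0.03, -0.10 to 0.17). Ifngr2, Ifnlr1, Socs1 and Socs3 had log2 fold changes of 0.06, -0.14, 0.40 and 0.41 that did not pass the test. The median correlation of the genes of this list with the 8 genes was -0.033.

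Of 18 genes of nucleic acid sensing that were tested, 6 rose (33.3%, beside 25.6% of all rows) and 2 fell (11.1%, beside 25.5%), with a median log2 fold change of 0.32. With 1 heart left out the number that rose ran from 4, without WT replicate 3 or 5, to 9, without KO replicate 6. Of all rows tested, 4095 of 17390 rose without WT replicate 3 and 4087 of 17395 without WT replicate 5. Without KO replicate 6, 4342 of 17350 rose. The DNA sensor Aim2 rose by 0.91 (adjusted p = 0.000514), and the endosomal receptors Tlr7 and Tlr9 rose by 0.80 (adjusted p = 0.000847) and 0.92 (adjusted p = 0.0260). Mb21d1, the gene of cGAS, rose by 0.62 (adjusted p = 0.0327), its adaptor gene Tmem173 (STING) by 0.44 (adjusted p = 0.00599) and the kinase gene Ikbke by 0.67 (adjusted p = 0.00185). The levels of these 6 genes lay between 0.709 CPM for Tlr9 and 6.22 for Tmem173 in WT on average, and the calls of Mb21d1 and Tlr9 were lost in 5 and 3 of 12 fits that left out 1 heart. The adaptor genes Myd88 and Mavs fell by 0.34 (adjusted p = 0.00165) and 0.17 (adjusted p = 0.0121). The row of Aim2 (185258101 to 185386443 on chromosome 1) overlaps that of Cadm3, and the rows of Ikbke and Myd88 overlap other rows of the table.

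The RNA helicase genes Ddx58, Ifih1 and Dhx58 had log2 fold changes of 0.36, 0.08 and 0.59 and were not called. Neither were Tlr3 (0.14), Zbp1 (0.77), Ticam1 (-0.04), Tbk1 (-0.03), Irf3 (-0.10), Irf5 (0.28) and Samhd1 (-0.08). Trex1, which degrades cytosolic DNA, was at 0 counts in every heart in a row that overlaps another gene, Gm42641. Over the hearts, with the genotype mean removed, the correlation with the 8 genes was 0.985 for Ddx58, which was not called, and -0.357 for Aim2, which rose, with a median of 0.680 over the list.

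Among 52 other interferon-stimulated genes tested, 11 rose (21.2%, beside 25.6% of all rows) and 3 fell (5.77%, beside 25.5%), with a median log2 fold change of 0.23. Ifitm2, a membrane protein that blocks viral fusion, rose by 0.45 (SE 0.076, adjusted p = 0.000103), Ifi204, a DNA-binding protein, by 1.05 (SE 0.200, adjusted p = 0.000731) and Slfn5 by 0.44 (SE 0.096, adjusted p = 0.00129). Pnpt1 fell by 0.30 (adjusted p = 0.000583), Nmi fell by 0.46 (adjusted p = 0.000863) and Ifi27 fell by 1.51 (SE 0.428, adjusted p = 0.0123). Ifi27 lay at 24.3 to 36.5 CPM in all KO hearts and at 38 to 203 in WT, where replicates 1 and 4, at 131 and 203, stood far above the others. In 39 of the 52 genes KO replicate 6 was again lowest and replicate 3 next lowest among KO hearts. Without KO replicate 6 the number that rose was 19, and over all rows 4342 of the 17350 tested in that fit rose.

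Of 21 genes associated with interferon gamma 5 rose (23.8%, beside 25.6% of all rows) and 1 fell (4.76%, beside 25.5%), with a median log2 fold change of 0.09. Psmb10, a subunit of the immunoproteasome, rose by 1.11 (SE 0.109, adjusted p = 9.51e-07), the transcription factor genes Irf8 and Irf1 by 0.62 (adjusted p = 8.21e-05) and 0.43 (adjusted p = 0.00125). Cxcl9, a chemokine induced by interferon gamma, fell by 1.13 (SE 0.129, adjusted p = 1.62e-06). In 7 of the 21 genes KO replicates 6 and 3 were the lowest KO hearts in that order. The plot of fold changes by list sets the 8 genes beside these lists.

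**Figure D4:**
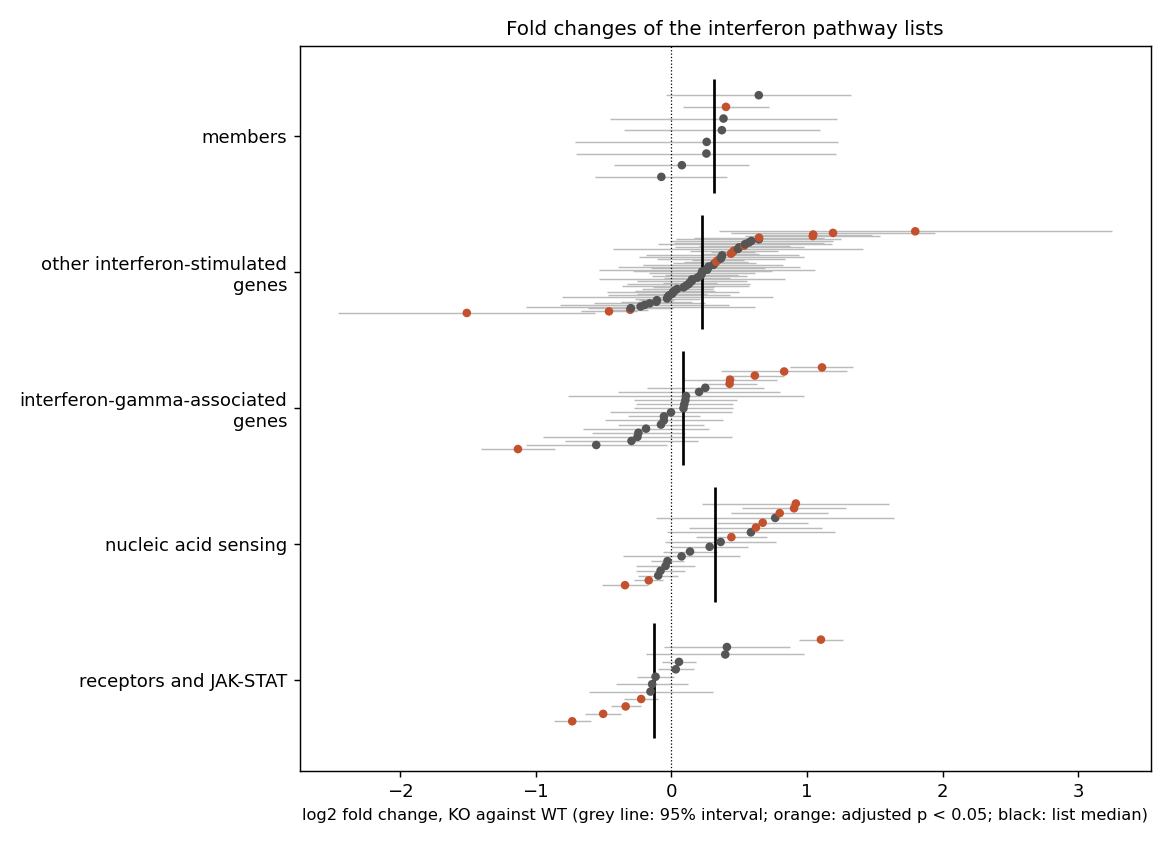
Log2 fold change of KO against WT (x axis) of each gene tested, by list (y axis), with its 95% confidence interval (grey line), orange where the edgeR adjusted p was under 0.05, and the list median as a black bar. The intervals of the 8 interferon-stimulated genes (members) are wide, and only that of Stat2 leaves out 0. The receptor and kinase genes of the last list, without its other members such as Socs1 and Socs3, have narrower intervals around values from -0.73 to 1.10.

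Markers of other cells were set beside the interferon-stimulated genes. The share of each marker list that was called stands beside 25.6% of all rows called higher and 25.5% called lower. The 6 fibroblast markers summed to 1041 to 1249 CPM in WT and to 1463 to 1990 in KO, and 5 of them rose (83.3%) and 1 fell (16.7%). Within KO, replicates 3 and 6 had the lowest fibroblast sums, 1463 and 1525, and the lowest mural cell sums, 1276 and 1309 against 1540 to 1699 in the other KO hearts. They had the highest cardiomyocyte sums, 55694 and 45227 against 40019 to 44700, in a list of 9 markers of which 1 rose (11.1%) and 4 fell (44.4%). Among WT hearts, replicates 1, 4 and 6, the highest in the interferon-stimulated genes, had fibroblast sums of 1229, 1130 and 1090. In WT replicates 2, 3 and 5 these were 1041, 1180 and 1249. Mural sums were 1253, 1146 and 1285 in WT replicates 1, 4 and 6 and 1300 to 1359 in the other WT hearts. The cardiomyocyte sum was highest in WT replicate 4, at 53095, and lowest in WT replicate 2, at 48274. Of the macrophage markers 2 rose, 2 fell and 6 were not called. Macrophage sums ran from 308 to 430 CPM in WT and from 324 to 459 in KO. They were highest in replicate 4 of either genotype, and lowest in WT replicate 5 and KO replicate 6. KO replicate 3, at 383, was not low, with KO replicates 2 and 5 below it at 355 and 374. WT replicate 6 was next highest in WT, at 385, but WT replicate 1, at 359, lay below WT replicate 3, at 363. Endothelial markers summed to 1257 to 1416 CPM in WT and 1371 to 1677 in KO, with 4 of 6 higher (66.7%). The lowest KO heart was replicate 3, at 1371. Replicate 6 was next, at 1530, close to KO replicates 1 and 4, at 1546 each.

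The markers of monocytes and neutrophils summed to 6.15 to 16.9 CPM in WT and 11.6 to 25.2 in KO. Of these markers 2 of 5 were higher (40.0%, beside 25.6% of all rows), and KO replicates 3 and 6 were not low for them, at 22.2 and 23.9. The T and NK cell markers, 1 of 5 tested higher, summed to 2.48 to 9.90 CPM over all hearts. Within KO, replicates 3 and 6 had the lowest of these sums, 2.48 and 4.07, close to replicate 5 at 4.24. Within WT, replicates 4 and 1 were highest, at 6.68 and 5.75, but replicate 6, at 3.97, lay below replicate 2, at 5.24. The B cell markers, none of 3 called, summed to 1.26 to 4.26. Those of plasmacytoid dendritic cells, the main interferon-producing leukocyte, stayed at or under 0.769 CPM, none passing the filter. No marker was at 0 in all hearts. The part of these cell type markers in the order of the hearts was not tested.

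**Figure D5:**
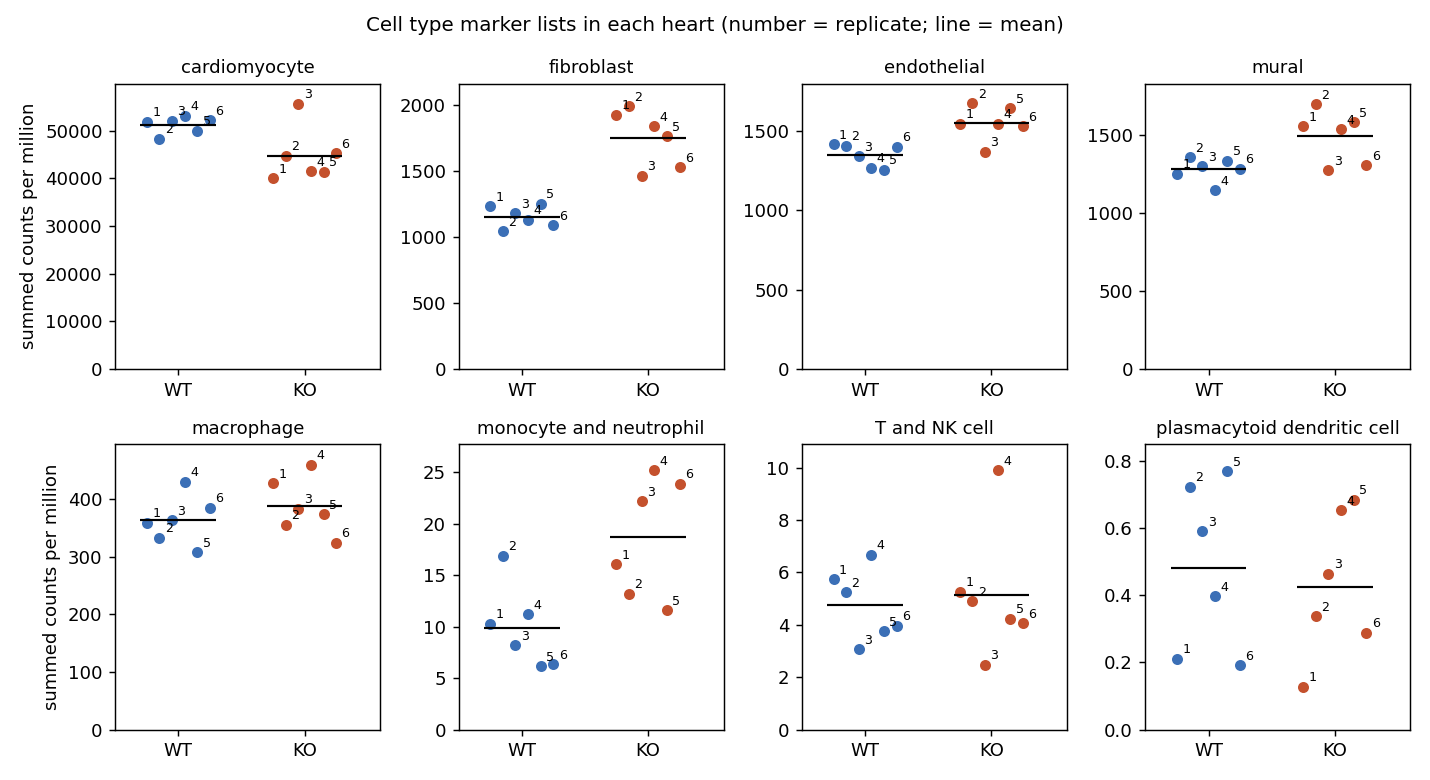
Summed CPM (y axes, linear from 0 and different for each panel) of marker genes of 8 cell types in the 6 WT (blue) and 6 KO (orange) hearts, with replicate numbers and the group mean as a line. Fibroblast sums do not overlap between genotypes, and KO replicates 3 and 6 have the lowest fibroblast sums of the KO hearts, 1463 and 1525. Among WT hearts replicate 5 has the highest fibroblast sum, 1249.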

How the data were processed

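Poly-A RNA of ventricular wall was sequenced from 6 WT and 6 KO samples, grouped by the genotype label. The authors mapped the reads (HISAT2 2.0.5 and mm10 per the labels, with C57BL/6NJ gene identifiers in the table), counted them per gene with HTSeq 0.9.1 and deposited raw counts. FPKM values, computed by the authors from the counts, gene length and library size, were deposited per library and used for levels between genes. The authors' group means of scaled counts (a signal), log2 fold changes and p-values of their own DESeq comparison were also deposited and not used. Whether counting used strand is not given in the sources used here.

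edgeR 4.0.16 (R 4.3.3) was used for the tests on counts, with TMM factors, the 17155 rows that passed filterByExpr and the robust quasi-likelihood test, adjusted by Benjamini-Hochberg over those rows. Adjusted p-values in the report are from edgeR. Single genes were also tested with a two-sided exact permutation test of mean log2 CPM (prior count 2). Alternatives were other normalizations, DESeq2 1.42.0, limma 3.58.1 (voom, and log2 FPKM with a pseudocount of 0.1), other filters, a replicate block, no unannotated loci (2590 rows) and each heart left out. Libraries held 23747014 to 31393393 counts, and limits from 3 counts cover counting error only. The analysis was tested on simulated data.

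The genes and lists were chosen with earlier results of these data known. The text names all genes of the rule, every tested gene of the receptor and sensing lists (1 is not reported here), the 3 with the smallest p in each direction of the other lists, Oasl1, undetected ligands, the 8 most alike rows, and Sdhaf4. Ifit1bl1, Ifit1bl2 and the overlapping rows were named after their values were seen.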

Additional observations from a re-analysis of the deposited data

Results flagged for a closer look

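Over 59 genes named in the report and the 9 sums of cell type markers, each in WT and in KO, 136 groups of 6 hearts were examined. In 5 of them the gap between 1 heart and the nearest other heart was large against the range of the group by Dixon's criterion, where chance alone would give about 6.8. Ifngr1 in WT replicate 2 was at 72.9 CPM, with the next WT heart at 86.2, so that it lay farther from the KO hearts than the others. Ikbke in WT replicate 6 was at 2.98 CPM, with the next WT heart at 2.14, and lay nearest to the KO hearts. Sdhaf4 in KO replicate 1 was at 2.73 CPM, with the next KO heart at 2.41. Ifit1bl2, a relative of Ifit1, was at 6.69 CPM in KO replicate 3, with the next KO heart at 4.05. The cardiomyocyte markers summed to 55694 CPM in KO replicate 3, with the next KO heart at 45227. None of the 8 measured interferon-stimulated genes held such a heart. In KO a pair of hearts, replicates 3 and 6, lay apart together in these genes, which this criterion, built for a single heart, is not able to mark.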

How the results depend on the processing

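The number of the 8 genes called higher was 1 by the analysis of the report, 2 without robust dispersions (Stat2 and Oasl2, at 0.65 with an adjusted p of 0.0498), 0 when every row with at least 1 count was tested (Stat2 at 0.41, adjusted p = 0.0752) and 0 with limma on log2(FPKM + 0.1) (Stat2 at 0.38, adjusted p = 0.0544). With 1 heart left out it ran from 0 to 2, and with other normalizations, DESeq2 or limma-voom it was 1. Of all rows, 4391 of 17155 were called higher by the analysis of the report and 4407 without robust dispersions. With every row of at least 1 count it was 4626 of 27883, and with limma on FPKM 4266 of 17155. With 1 heart left out, rows called higher ran from 4087 of 17395 to 4401 of 17331, and rows called lower from 4162 of 17325 to 4602 of 17331. Genes with an exact permutation p under 0.05 numbered 0, and 0 to 2 with 1 heart left out. Without KO replicate 6, Stat2 had an exact p of 0.0130 and Oasl2 of 0.0325, and Stat2 had an exact p of 0.0476 without WT replicate 1 or KO replicate 3. With 1 heart left out, other interferon-stimulated genes called higher ran from 8 to 19 (highest without KO replicate 6) and genes associated with interferon gamma called lower from 1 to 2. That last count was also 2 with DESeq2, without robust dispersions and with limma on FPKM. The log2 fold change of Irf9 ran from -0.16 to 0.05 and that of Rsad2 from -0.029 to 0.197 with 1 heart left out. The replicate number did not pair hearts (correlation of deviations -0.162 to 0.0243), and a replicate block left 1 of the 8 genes called higher and 4123 rows higher and 4110 lower in all. The cause of these changes was not tested. Depth limits the interferon ligands, none of which passed the filter on low counts, and genes near or under 1 CPM such as Tlr9.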
